A study of Homo sapiens with 12 samples.

Results

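The 6 arrays described here compare MV4-11 cells carrying an shRNA against CHD4 with MV4-11 cells carrying a scrambled shRNA. They are 3 arrays per group, taken by cell line and shRNA from the sample titles, out of 12 arrays in the series. The other 6 arrays hold the same contrast in U937, a human cell line of monocytic character. They enter here through the shared estimate of spread and the test of the difference between lines. MV4-11 is an established human acute myeloid leukaemia line of myelomonocytic character whose known drivers are a fusion of the MLL gene and a mutant, constantly active FLT3. Both groups were grown in RPMI medium with fetal bovine serum and antibiotics. Both carried the lentiviral vector pRRL.H1.shRNA, which expresses GFP, with a non-silencing hairpin in the controls. The target is written CDH4 in the labels of the samples but CHD4 in the text of the series, and CHD4 is used here because its own transcript was lowered (below). Labels name the hairpin only by its target, and give neither the time after transduction nor whether cells were sorted on GFP. The series description calls the triplicates biological, and p-values measure the spread between these arrays.

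CHD4 is the ATPase of NuRD, the nucleosome remodelling and deacetylase complex, which joins nucleosome sliding to histone deacetylation by HDAC1 and HDAC2. NuRD is recruited by DNA-binding factors and by methyl-CpG binding proteins, and is best known for restraining transcription at enhancers and promoters in developing blood cells. CHD4 also takes part in the response to DNA double-strand breaks, and the title of the series concerns sensitivity of leukaemia blasts to genotoxic agents.

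The values are log2 RMA signals of a human Affymetrix array, so a difference of 1 is a doubling. Each of 11963 genes is represented by its brightest probe set, and values of different genes are not compared, because probe sets differ in brightness. Changes are given with their standard error (±). Array values below are always given in the order array 1, 2 and 3. A gene counts as changed, or past the threshold, where the limma adjusted p was under 0.05.

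Markers fixed for the cell type were checked first. LYZ, which encodes lysozyme, averaged 13.24 and the myeloid transcription factor CEBPA 11.41 on the scrambled arrays. FLT3, the receptor whose mutant form MV4-11 carries, averaged 9.99 there against 6.64 on the U937 scrambled arrays. Of the 10 measured myeloid markers, MPO averaged 5.59 and SPI1 6.43. Among markers of other cell types, CD3E averaged 5.71, ALAS2 5.86, EPCAM 4.05, COL3A1 4.53 and COL1A1 7.58. Which of these lie above background is unknown, since background signals were not used here. No marker of the 6 fixed classes changed apart from CD2 and CD79B. Summed log2 values of the 6 T and NK cell markers ran from 34.85 to 35.27 on the scrambled arrays and from 36.31 to 36.76 with CHD4 shRNA. CD2 changed by 1.77, and the other 5 stood at -0.17 (LCK) to 0.03 (CD3E). Sums of the 3 measured B cell markers ran from 18.82 to 19.06 and from 19.38 to 20.09, with CD79B at a change of 1.34, MS4A1 at -0.25 and PAX5 at -0.31. Whether other cells took part in any result was not tested. In cultures measured as a whole, fewer cells of a kind and less RNA per cell cannot be told apart.

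The arrays of the groups stood apart, but unevenly. In a principal component analysis of the 6 arrays, the first component held 61.1% of the variance, with the scrambled arrays at -14.8, -13.3 and -25.0. The CHD4 shRNA arrays lay at 19.4, 33.9 and -0.3, so array 3 lay nearest the controls and array 2 farthest from them. CHD4 shRNA array 2 was the most changed of the 3 in 314 of the 566 genes that rose and in 305 of the 561 that fell. Array 3 was the most changed in only 70 and 88 of them. Same-numbered arrays also deviated together from their group means, which is why a model with the replicate number as a block was fitted too.

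CHD4 itself read 10.65, 10.69 and 10.68 on the scrambled arrays and 8.79, 8.85 and 8.39 on the CHD4 shRNA arrays. All 3 CHD4 shRNA arrays lay well below all 3 controls, and CHD4 shRNA array 3, the least changed over other genes, was the lowest. The change was -2.0 ± 0.14 (adjusted p = 1.35e-05), or 3.99-fold lower, so 25.1% of the signal of the controls remained. An exact permutation test on CHD4 alone gave a two-sided p of 0.1, the smallest that 3 arrays against 3 allow. Its other 2 probe sets changed by -1.77 and -1.76.

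Of 11963 genes, 1127 changed, with 566 higher and 561 lower in the CHD4-depleted cells. That is 9.42% of genes in either direction, 4.73% higher and 4.69% lower. These shares are the background only for list counts with all arrays and no block. Counts with the block or with 1 array left out have other totals over all genes, given in the next paragraph. Over all probe sets with 1 symbol, 8.25% were past the threshold. Large changes were mostly rises. At least 2-fold changes were found for 135 genes that rose and 56 that fell, and at least 4-fold changes for 29 and 3. Every one of the 1127 genes had the same sign in all 3 same-numbered pairs, and in 1106 the 2 sets of 3 arrays were fully separate. The same arrays chose these genes, so neither property is separate support, here or where given for single genes below. Over all genes, 25.6% did not overlap, 1374 of them higher and 1689 lower with CHD4 shRNA.

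How many genes passed depended on the model and on single arrays. With the replicate number as a block within each line, 2351 genes passed, among them 1126 of the 1127. Of the 2351, 1245 were higher and 1106 lower. Leaving out CHD4 shRNA array 3 raised the number to 1964 (1015 higher and 949 lower), of which 1060 were among the 1127. Leaving out CHD4 shRNA array 1 lowered it to 422 (222 higher and 200 lower), of which 419 were. Without CHD4 shRNA array 2 the number was 637, and without scrambled arrays 1, 2 and 3 it was 763, 647 and 599. Where leaving out 1 of the 12 arrays moved a list's count by over 1.5 times, its range is given below, except for counts of 1 or none that reached at most 2. There K1 to K3 stand for CHD4 shRNA arrays 1 to 3 of MV4-11, S1 to S3 for its scrambled arrays, and UK1 to UK3 and US1 to US3 for those of U937. Genes whose call was lost are named with these arrays. With only the 6 MV4-11 arrays fitted, 95 named results also fell short, and those losses are not listed gene by gene.

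**Figure D1:**
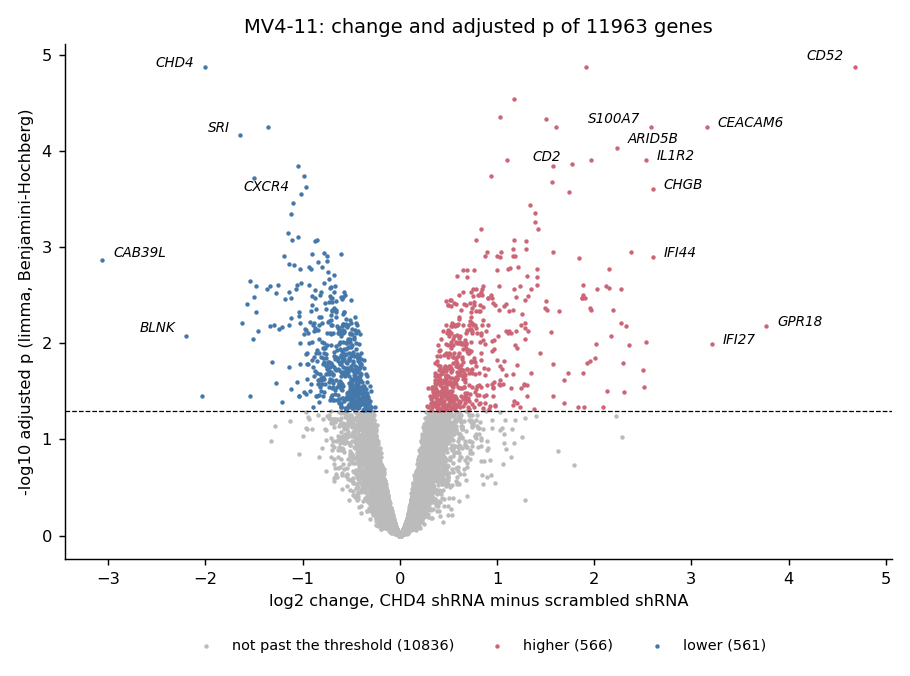
Log2 change (CHD4 shRNA minus scrambled shRNA, x axis) against -log10 of the limma adjusted p (y axis) for 11963 genes in MV4-11, with the dashed line at an adjusted p of 0.05. The 566 genes that rose reach further from 0 than the 561 that fell, and CD52, TGFB1I1 and CHD4 share the highest position on the y axis.

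The strongest rise was that of CD52, a small glycosylphosphatidylinositol-anchored glycoprotein of lymphocytes and monocytes and the target of alemtuzumab. CD52 read 6.27, 6.99 and 6.78 on the scrambled arrays and 11.69, 11.38 and 11.02 on the CHD4 shRNA arrays. Every CHD4 shRNA array was over 4 log2 units above every control. The change was 4.68 ± 0.32 (adjusted p = 1.35e-05), or 25.7-fold, and the other CD52 probe set rose by 3.51. GPR18, a receptor of lipid mediators on leukocytes, read 5.42, 4.90 and 5.03 on the scrambled arrays and 9.20, 10.25 and 7.22 on the CHD4 shRNA arrays. Its groups did not overlap, but array 3 rose far less than array 2, and the change of 3.77 ± 0.70 (adjusted p = 0.00659) carries a wide error.

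CEACAM6, an adhesion molecule of granulocytes and epithelia, was at 5.98, 5.13 and 5.21 on the scrambled arrays and 9.17, 8.19 and 8.45 on the CHD4 shRNA arrays. Here array 1 was the highest, and the change was 3.16 ± 0.27 (adjusted p = 5.57e-05). S100A7, the calcium-binding protein psoriasin, read 5.04, 5.43 and 5.02 on the scrambled arrays and 8.30, 7.35 and 7.59 on the CHD4 shRNA arrays. It was higher on all 3 CHD4 shRNA arrays, by 2.58 ± 0.22 (adjusted p = 5.57e-05). IL1R2, the decoy receptor that binds interleukin 1 without signalling, was at 4.86, 4.96 and 4.86 on the scrambled arrays and 7.95, 7.35 and 6.97 on the CHD4 shRNA arrays. The rise was 2.53 ± 0.24 (adjusted p = 0.000125), and the groups lay at least 2 log2 units apart. TGFB1I1, the focal adhesion adaptor Hic-5, shared the lowest adjusted p of all with CD52 and CHD4, at 1.91 ± 0.13 (adjusted p = 1.35e-05), and is named here after its values were seen.

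The other genes among the 20 largest rises with groups that did not overlap fall into a few kinds. Receptors and scavengers of phagocytes were FPR2, a formyl peptide receptor (2.53 ± 0.51), CD36, a fatty acid and lipoprotein scavenger receptor (2.30 ± 0.52), and CLEC5A, a C-type lectin that signals through DAP12 (2.19 ± 0.38). CYBB and NCF1, both parts of the phagocyte NADPH oxidase, rose by 2.50 ± 0.58 and 2.36 ± 0.49. NCF1 has near-identical pseudogenes that its probe set may also detect. Enzymes of small molecules were DHRS9, a retinol and steroid dehydrogenase (2.38 ± 0.31), GCH1, which starts tetrahydrobiopterin synthesis (2.28 ± 0.42), and ACOX2, a peroxisomal oxidase of branched fatty acids and bile acid precursors (2.27 ± 0.35). FABP4, the fatty acid carrier of adipocytes and macrophages, rose by 2.51 ± 0.64 (adjusted p = 0.0288). ARID5B, a DNA-binding partner of a histone demethylase, read 5.26, 5.56 and 4.69 on the scrambled arrays and 7.23, 7.63 and 7.34 on the CHD4 shRNA arrays. Its 3 CHD4 shRNA arrays lay close together, at a change of 2.23 ± 0.21 (adjusted p = 9.4e-05). CHGB, the neuroendocrine granule protein chromogranin B, rose by 2.60 ± 0.28 (adjusted p = 0.000248), and IPCEF1 by 2.33 ± 0.44 (adjusted p = 0.00662). The interferon-induced IFI27, IFI44 and IFI44L complete the 20 and are described with their group. One of 2 other CD36 probe sets also passed, and neither of 2 other CYBB probe sets did (0.03 and 0.84). CD36 lost its call without K1, K2, S1 or S3 (adjusted p 0.0526 to 0.0738), CYBB without K1, K2, S2 or S3 (adjusted p 0.0535 to 0.0798) and NCF1 without K1 (adjusted p 0.0543). FABP4 lost its call without K1, K2, S1, S2 or S3 (adjusted p 0.067 to 0.101).

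**Figure D2:**
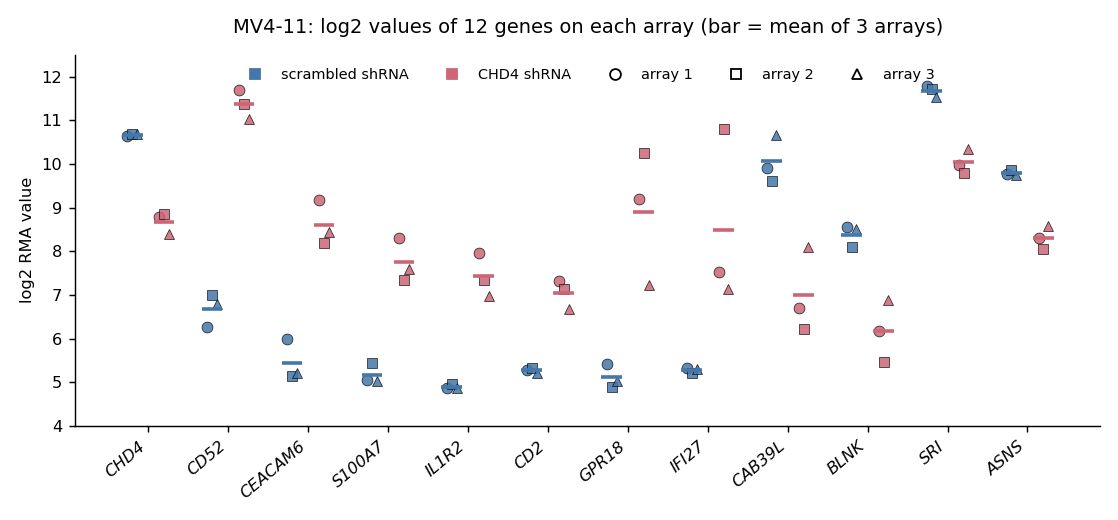
Log2 RMA values (y axis) of 12 genes on each MV4-11 array, with scrambled shRNA in blue, CHD4 shRNA in red, a marker shape per array number and a bar at the mean of 3 arrays. The groups do not overlap for any of the 12, but for all except CD2 separate groups were a condition of being picked. Array 2 of CHD4 shRNA stands at 10.80 for IFI27 and 10.25 for GPR18 while array 3 stands at 7.14 and 7.22.

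The largest fall was that of CAB39L, a scaffold of the MO25 family that activates the kinase LKB1 together with STRAD. CAB39L read 9.91, 9.61 and 10.66 on the scrambled arrays and 6.69, 6.21 and 8.09 on the CHD4 shRNA arrays. Array 3 was the least lowered, yet still below every control, and the change was -3.06 ± 0.42 (adjusted p = 0.00137), or 8.36-fold lower. BLNK, the adaptor that couples the B cell receptor and related receptors to phospholipase C, was at 8.55, 8.09 and 8.50 on the scrambled arrays and 6.18, 5.46 and 6.89 on the CHD4 shRNA arrays. All of its CHD4 shRNA arrays lay below the controls, at a change of -2.20 ± 0.43 (adjusted p = 0.00835). SRI, the calcium-binding protein sorcin, was lower on every CHD4 shRNA array, at 11.79, 11.72 and 11.53 on the scrambled arrays and 9.98, 9.79 and 10.35 on the CHD4 shRNA arrays, and changed by -1.64 ± 0.15 (adjusted p = 6.84e-05).

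The 20 largest falls also include CHD4 itself and ASNS, and the latter is described with amino acid genes. Among the rest, signalling genes included PDE4B, a cyclic AMP phosphodiesterase (-1.57 ± 0.26), TIAM1, an exchange factor for Rac (-1.50 ± 0.24), and SH3YL1, a phosphoinositide-binding protein (-1.46 ± 0.28). PPM1H, a protein phosphatase, changed by -1.32 ± 0.29 and KCNAB1, a potassium channel subunit, by -1.54 ± 0.41. Secreted proteins and their makers were CCN3, a matricellular protein, at -1.50 ± 0.16, DEFB1, an antimicrobial beta-defensin, at -1.37 ± 0.21, and the opioid precursor PDYN at -1.51 ± 0.30. FGF13 changed by -1.54 ± 0.23, the coagulation factor F8 by -1.48 ± 0.26, and PAM, the enzyme that amidates peptide hormones, by -1.36 ± 0.12 (adjusted p = 5.57e-05). GALNT3, which starts mucin-type glycosylation, changed by -1.62 ± 0.30 and GNPDA1, a glucosamine-6-phosphate deaminase, by -1.34 ± 0.25. TESMIN and MNS1, both known from male germ cells, changed by -2.03 ± 0.54 and -1.34 ± 0.21. The other GALNT3 probe set did not pass (-0.07). A PDE4B probe set at -0.01 did not pass, while another at -0.68 did. A KCNAB1 probe set at -0.47 did not pass, while others at -1.17 and -1.35 did. PPM1H lost its call without K1, K2 or S3 (adjusted p 0.0534 to 0.0682), KCNAB1 without K1, K2, S1, S2, S3, US1 or US2 (adjusted p 0.0523 to 0.132) and TESMIN without K1, K2, S1, S2, S3, US1 or US2 (adjusted p 0.0526 to 0.147).

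The 53 gene lists, drawn up from textbook knowledge, held 1903 genes, of which 1671 were measured. They were written with earlier results of these data known, so their counts describe the change and are no independent evidence of it. The share of members that rose was highest for interferon-stimulated genes, S100 and annexin proteins and eicosanoid enzymes, and the share that fell was highest for amino acid stress genes. In 3 lists no member passed, namely histone and DNA modifying enzymes, epithelial markers, and proteasome and cytosolic ribosome proteins. The median change over all 11963 genes was -0.03.

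**Figure D3:**
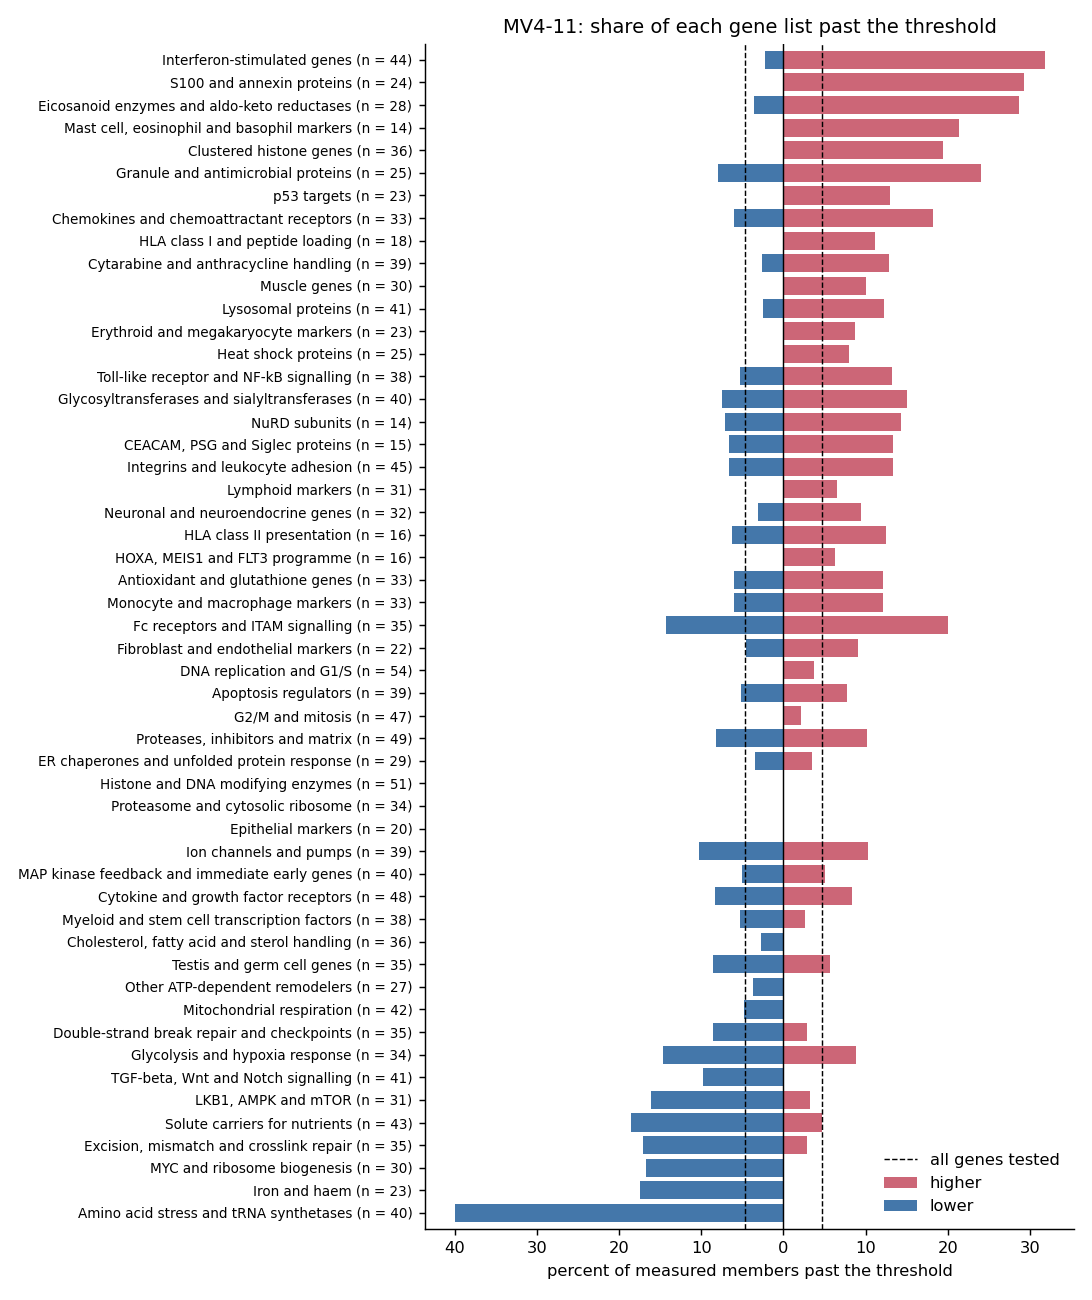
Percent of measured members of each of 52 gene lists that were lower (blue, left of 0) or higher (red, right of 0) in MV4-11 with CHD4 shRNA, with dashed lines at the shares over all genes tested (4.69% lower and 4.73% higher). Interferon-stimulated genes stand out on the right at 31.8% and amino acid stress genes on the left at 40%.

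Besides CHD4, 2 other NuRD subunits changed. Of 14 measured subunits, CDK2AP1 rose by 1.12 ± 0.20 (adjusted p = 0.00466) and the methyl-CpG binding subunit MBD2 by 0.45 ± 0.13 (adjusted p = 0.0454), and CHD4 alone fell. CDK2AP1, a small subunit also known as a CDK2 partner, read 9.59, 9.59 and 9.33 on the scrambled arrays and 10.78, 10.88 and 10.22 on the CHD4 shRNA arrays. Array 3 of CHD4 shRNA was the lowest of its group, and the groups did not overlap. None of 3 other MBD2 probe sets passed, at -0.03 to 0.07. The paralogous ATPase CHD3 stood at 0.15 ± 0.09 (adjusted p = 0.366) and CHD5 at 0.05 ± 0.10 (adjusted p = 0.823). The deacetylase HDAC1 stood at 0.49 ± 0.19 (adjusted p = 0.134) and the subunit GATAD2A at 0.61 ± 0.18 (adjusted p = 0.0563). With the block, 5 subunits were higher. Among 27 measured members of other ATP-dependent remodelling complexes, SMARCE1, a subunit of the BAF complex, was the one past the threshold, at -0.44 ± 0.11 (adjusted p = 0.0288). Its other probe set stood at 0.0. None of 51 histone and DNA modifying enzymes passed in limma. The demethylase KDM3A had the lowest p of them, at -0.45 ± 0.14 (adjusted p = 0.0582) and 0.00658 with the block, under which 3 rose and 4 fell. The NuRD subunits list had, with 1 array left out, 1 (without K1, K2, S1, S2, S3, UK2, US1, US2 or US3) to 4 (without K3) higher. The histone and DNA modifying enzymes list had, with 1 array left out, 0 to 4 (without K3) lower. The other ATP-dependent remodelers list had 0 higher and 2 lower members with the block. MBD2 lost its call without K1, K2, S1, S2, S3, UK2, US1, US2 or US3 (adjusted p 0.0553 to 0.185) and SMARCE1 without K1, K2, S1, S2 or S3 (adjusted p 0.0579 to 0.111).

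Most markers of mature myeloid cells did not pass. Of 33 measured monocyte and macrophage markers, 4 rose (12.1%, against 4.73% of all genes), at a list median of 0.11. The 2 that fell are 6.06%, near the 4.69% of all genes. With 1 array left out, the count of rises was 3 (without K1, K2, S1 or S3) to 7 (without K3). FCER1G, the signalling chain shared by Fc receptors, read 10.07, 10.01 and 10.10 on the scrambled arrays and 11.60, 11.60 and 11.20 on the CHD4 shRNA arrays. The groups were tight and separate, at a change of 1.41 ± 0.20 (adjusted p = 0.00169). AIF1, an actin-binding protein of macrophages, rose by 0.56 ± 0.09, the costimulatory ligand CD86 by 0.59 ± 0.12, and CD36 as given above. Falls were CTSD, the lysosomal protease cathepsin D (-0.71 ± 0.11, adjusted p = 0.00257), and the lectin LGALS3 (-0.34 ± 0.09, adjusted p = 0.0395). One of 3 other AIF1 probe sets stood at -0.01. The monocyte and macrophage markers list had, with 1 array left out, 1 (without K1, K2, S1, S2, S3, UK1, US1 or US2) to 2 lower. LGALS3 lost its call without K1, K2, S1, S2, S3, UK1, US1 or US2 (adjusted p 0.0533 to 0.144).

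Granule proteins moved in both directions. Of 25 measured members 6 rose and 2 fell, and the count of rises was 3 (without K2) to 8 (without K3) with 1 array left out. MMP9, the gelatinase of tertiary granules, read 7.36, 7.13 and 7.38 on the scrambled arrays and 8.77, 8.81 and 8.33 on the CHD4 shRNA arrays. It was higher on all CHD4 shRNA arrays, by 1.35 ± 0.21 (adjusted p = 0.00273), which is 2.54-fold. DEFA4, an alpha-defensin, rose by 1.26 ± 0.22 (adjusted p = 0.005), the eosinophil ribonuclease RNASE2 by 0.72 ± 0.14 (adjusted p = 0.00712), the serine protease GZMA by 1.93 ± 0.43 (adjusted p = 0.0162) and the specific granule protein TCN1 by 0.88 ± 0.21 (adjusted p = 0.0213). Haptoglobin, HP, was the sixth, at 1.24 ± 0.36 (adjusted p = 0.046). The 2 members that fell, CTSG at -0.74 ± 0.17 (adjusted p = 0.0202) and ELANE at -0.69 ± 0.17 (adjusted p = 0.0257), encode serine proteases of the azurophil granule. MPO, of the same granule, stood at 0.18 and did not pass. The granule and antimicrobial proteins list had 7 higher and 5 lower members with the block, and, with 1 array left out, 0 (without K1, K2 or S3) to 4 (without K3) lower. GZMA lost its call without K1, K2 or S3 (adjusted p 0.0547 to 0.0559), TCN1 without K1, K2, S1 or S2 (adjusted p 0.0555 to 0.0725) and HP without K1, K2, S1, S2, S3, UK1, UK2, US1, US2 or US3 (adjusted p 0.0598 to 0.157). CTSG lost its call without K1, K2 or S3 (adjusted p 0.0743 to 0.0842) and ELANE without K1, K2, S1 or S3 (adjusted p 0.0719 to 0.0905).

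Of 24 measured S100 and annexin genes, 7 rose, against a background of 4.73%, and none fell. Leaving out K3 gave 1 fall, and the block gave 1. With 1 array left out the rises numbered 6 (without K2 or S3) to 9 (without K3). Their median change was 0.24. Besides S100A7, S100B read 6.14, 5.67 and 5.55 on the scrambled arrays and 7.41, 7.65 and 6.81 on the CHD4 shRNA arrays, separate between groups, and rose by 1.5 ± 0.25 (adjusted p = 0.00367). S100A2 rose by 0.91 ± 0.15, S100P by 0.73 ± 0.13, S100A1 by 0.50 ± 0.10 and S100A4 by 0.50 ± 0.11. ANXA1, a phospholipid-binding protein that is a ligand of FPR2, rose by 1.29 ± 0.26 (adjusted p = 0.00904). The remaining 17 members did not pass. Within the CEACAM, PSG and Siglec families, CEACAM6 and SIGLEC7 (0.60 ± 0.14) rose and SIGLEC6 fell (-0.80 ± 0.20) among 15 measured. The S100 and annexin proteins list had 9 higher and 1 lower members with the block. The CEACAM, PSG and Siglec proteins list had 4 higher and 1 lower members with the block, and, with 1 array left out, 1 (without K1, K2 or S3) to 4 (without K3) higher. S100A4 lost its call without K2 or S3 (adjusted p 0.0533 to 0.0586), SIGLEC7 without K1, K2 or S3 (adjusted p 0.0712 to 0.0805) and SIGLEC6 without K2, S1 or S3 (adjusted p 0.0813 to 0.0891).

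Of 45 integrin and leukocyte adhesion genes, 6 rose (13.3%, against 4.73% of all genes). The 3 that fell are 6.67%, near the 4.69% of all genes. On leaving out 1 array, the rises numbered 4 (without K1, K2 or S1) to 9 (without K3). ITGAM, the alpha chain of the Mac-1 integrin (CD11b), read 6.08, 5.95 and 6.25 on the scrambled arrays and 7.59, 7.82 and 7.10 on the CHD4 shRNA arrays. It was separate between groups at a change of 1.41 ± 0.21 (adjusted p = 0.00205), but its other probe set stood at -0.11. ITGA2B, the platelet integrin chain, rose by 0.97 ± 0.20, ITGB1 by 0.55 ± 0.10, ITGA7 by 0.41 ± 0.10 and the tetraspanin CD82 by 0.63 ± 0.14, and CD52 is also on this list. None of 4 other ITGB1 probe sets passed. ITGA2B probe sets at 0.59 and -0.07 did not pass, while another at 1.78 did. ITGA6, a laminin receptor chain, fell on both of its probe sets and read 10.18, 10.04 and 10.20 on the scrambled arrays and 9.08, 9.17 and 9.45 on the CHD4 shRNA arrays. Its change was -0.91 ± 0.13 (adjusted p = 0.00169). The other falls were CD24 (-0.77 ± 0.19, adjusted p = 0.0266) and CD47 (-0.66 ± 0.16, adjusted p = 0.0243), the signal that restrains phagocytosis, both named after their values were seen. The integrins and leukocyte adhesion list had 10 higher and 4 lower members with the block, and, with 1 array left out, 1 (without K1, K2 or S3) to 4 (without K3) lower. ITGA7 lost its call without K1, K2, S1 or S3 (adjusted p 0.0553 to 0.098), CD82 without K1, K2 or S1 (adjusted p 0.0579 to 0.0616) and CD24 without K1, K2, S1 or S3 (adjusted p 0.0756 to 0.102). CD47 lost its call without K1, K2, S1 or S3 (adjusted p 0.0701 to 0.106).

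Of 33 chemokines and chemoattractant receptors, 6 rose and 2 fell. The rises included GPR18 and FPR2, described above, C3AR1, a complement receptor (0.92 ± 0.27), and the neutrophil chemokine CXCL8 (2.09 ± 0.60). CXCR4, the receptor that holds blood progenitors and leukaemia cells in the marrow, read 12.35, 12.47 and 12.64 on the scrambled arrays and 11.30, 11.52 and 11.57 on the CHD4 shRNA arrays. All 3 CHD4 shRNA arrays were below the controls, and all 3 CXCR4 probe sets fell, the representative one at -1.02 ± 0.11 (adjusted p = 0.000281). CX3CR1, the fractalkine receptor of monocytes, rose by 1.44 ± 0.31 (adjusted p = 0.0127), and GPR183, an oxysterol receptor that guides lymphocytes, by 0.98 ± 0.28 (adjusted p = 0.0446). The chemokine CCL5 changed by -0.52 ± 0.15 (adjusted p = 0.0427). The group's median was 0.35 with all arrays and 0.07 without CHD4 shRNA array 2, and the count of rises was 2 (without K1 or S3) to 12 (without K3). With the block, the adjusted p of GPR183 was 0.0533. The chemokines and chemoattractant receptors list had 11 higher and 2 lower members with the block, and, with 1 array left out, 1 (without K1, K2, S1, S2, S3, UK2, US1, US2 or US3) to 2 lower. C3AR1 lost its call without K1, K2, S1, S2, S3, UK1, UK2, UK3, US1, US2 or US3 (adjusted p 0.0557 to 0.153), CXCL8 without K1, K2, S1, S2, S3, UK2, US1, US2 or US3 (adjusted p 0.0603 to 0.144) and CX3CR1 without K1 or S3 (adjusted p 0.0567 to 0.0589). GPR183 lost its call without K1, K2, S1, S2, S3, UK2, US1, US2 or US3 (adjusted p 0.0539 to 0.156) and CCL5 without K1, K2, S1, S2, S3, UK2, US1, US2 or US3 (adjusted p 0.058 to 0.156).

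Genes that act next to immunoreceptor tyrosine-based activation motifs, which couple Fc and antigen receptors to SYK-family kinases, were changed in 12 of 35 cases, 7 higher and 5 lower. The shares, 20% and 14.3%, compare with 4.73% and 4.69% over all genes. CD79B, a chain of the B cell receptor, read 6.47, 6.44 and 6.25 on the scrambled arrays and 8.03, 7.68 and 7.48 on the CHD4 shRNA arrays. It was separate between groups at 1.34 ± 0.15 (adjusted p = 0.000364). The Src-family kinase FGR rose by 1.09 ± 0.21 (adjusted p = 0.00744), the exchange factor VAV1 by 0.46 ± 0.10 (adjusted p = 0.0173), and TREM2, a lipid receptor of macrophages, by 1.05 ± 0.24 (adjusted p = 0.0185). FCER1A, the alpha chain of the IgE receptor, rose by 1.69 ± 0.47 (adjusted p = 0.042), with array 2 at 7.0 against 5.14 and 4.2 on arrays 1 and 3. Falls besides BLNK were BTK (-0.64 ± 0.15, adjusted p = 0.0186), LAT2 (-0.43 ± 0.11, adjusted p = 0.0265), MALT1 (-0.39 ± 0.11, adjusted p = 0.0368) and PLCG2 (-0.36 ± 0.10, adjusted p = 0.0489), which encode a kinase, an adaptor, a protease and a phospholipase downstream of such receptors, named after their values were seen. FCER1G and the adaptor LAT (0.57 ± 0.14) complete the rises. With 1 array left out, the 7 rises numbered 3 (without K1 or S1) to 9 (without K3) and the 5 falls 1 (without K1, K2 or S2) to 5. VAV1 lost its call without K1, K2 or S1 (adjusted p 0.0639 to 0.0673), TREM2 without K1, S1, S2 or S3 (adjusted p 0.0527 to 0.0566) and FCER1A without K1, S1, S2, S3, UK1, UK2, US1, US2 or US3 (adjusted p 0.0572 to 0.106). BTK lost its call without K1, K2 or S2 (adjusted p 0.0609 to 0.0888), LAT2 without K1, K2, S2 or S3 (adjusted p 0.083 to 0.114) and MALT1 without K1, K2, S1, S2, S3, UK1, US1 or US2 (adjusted p 0.051 to 0.157). PLCG2 lost its call without K1, K2, S1, S2, S3, UK1, UK2, US1, US2 or US3 (adjusted p 0.0563 to 0.174) and LAT without K1, K2, S1 or S3 (adjusted p 0.0605 to 0.0848).

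Among 31 lymphoid markers, only CD79B and CD2, a T and NK cell adhesion molecule, passed. CD2 read 5.28, 5.33 and 5.22 on the scrambled arrays and 7.32, 7.14 and 6.68 on the CHD4 shRNA arrays, so that even the lowest CHD4 shRNA array was over 1 log2 unit above the controls. The change was 1.77 ± 0.17 (adjusted p = 0.000138), while the T cell receptor chains CD3D and CD3E stood at -0.04 and 0.03. HLA class II genes gave 2 rises and 1 fall among 16. HLA-DPA1, an antigen-presenting alpha chain, read 5.26, 5.32 and 5.04 on the scrambled arrays and 6.45, 7.41 and 6.41 on the CHD4 shRNA arrays and rose by 1.55 ± 0.30 (adjusted p = 0.00761), though 1 of its 2 other probe sets stood at 0.18. HLA-DPB1 rose by 0.42 ± 0.11 (adjusted p = 0.0381), and RFX5, a factor that binds class II promoters, changed by -0.42 ± 0.09 (adjusted p = 0.0137). Of 18 class I and peptide loading genes, TAP1, a peptide transporter chain, rose by 0.43 ± 0.11 (adjusted p = 0.026) and the immunoproteasome subunit PSMB9 by 0.43 ± 0.11 (adjusted p = 0.0251). The lymphoid markers list had 3 higher and 1 lower members with the block. The HLA class II presentation list had 5 higher and 1 lower members with the block, and, with 1 array left out, 1 (without K1, K2, S1, S2, US1, US2 or US3) to 3 (without K3 or UK3) higher. The HLA class I and peptide loading list had 3 higher and 1 lower members with the block, and, with 1 array left out, 0 (without K1, S1 or S3) to 2 higher. HLA-DPB1 lost its call without K1, K2, S1, S2, UK1, US1, US2 or US3 (adjusted p 0.0503 to 0.138), RFX5 without K1 or S2 (adjusted p 0.0522 to 0.0665) and TAP1 without K1, K2, S1 or S3 (adjusted p 0.0701 to 0.101). PSMB9 lost its call without K1, S1 or S3 (adjusted p 0.0636 to 0.0839).

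Interferon-stimulated genes were the list with the highest share of rises. Type I interferon acts through IRF9 and its partners, which bind the interferon-stimulated response element and induce antiviral proteins. Of 44 measured members, 14 rose (31.8%, against 4.73% of all genes) and 1 fell, at a median change of 0.45. CHD4 shRNA array 2 was far above the other arrays, with a median over the members of 0.88 above the scrambled mean, against 0.34 and 0.23 for arrays 1 and 3. Without it the median was 0.26 and 8 members rose. Over each array left out, the rises numbered 6 (without S3) to 24 (without K3), and with the block they numbered 21.

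IFI27, a mitochondrial protein strongly induced by interferon, read 5.32, 5.22 and 5.3 on the scrambled arrays and 7.52, 10.80 and 7.14 on the CHD4 shRNA arrays. The controls lay within 0.1 of each other, arrays 1 and 3 were about 2 units above them, and array 2 was over 5 units above. The change was 3.21 ± 0.66 (adjusted p = 0.0102), and without array 2 it was 2.05 with an adjusted p of 2.78e-06. IFI44, a cytoplasmic antiviral protein, showed the same order of arrays at 4.10, 4.06 and 3.93 on the scrambled arrays and 6.08, 7.84 and 5.96 on the CHD4 shRNA arrays and a change of 2.60 ± 0.35 (adjusted p = 0.00128). Its neighbour IFI44L rose by 2.31 ± 0.60 (adjusted p = 0.0318). MX1, a GTPase that blocks influenza virus, read 5.84, 5.78 and 5.86 on the scrambled arrays and 6.71, 9.51 and 6.76 on the CHD4 shRNA arrays. Array 2 stood nearly 3 units above arrays 1 and 3, and the change of 1.83 ± 0.53 (adjusted p = 0.0462) became 0.91 without array 2, at an adjusted p of 0.000246. The other IFI44 probe set did not pass (0.25). IFI44L lost its call without S1, S2 or S3 (adjusted p 0.0751 to 0.0873) and MX1 without S1, S2, S3, UK1, UK2, UK3, US1, US2 or US3 (adjusted p 0.0537 to 0.114).

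Other effectors that rose were IFI6 (1.84 ± 0.25), the entry inhibitor IFITM1 (1.21 ± 0.25), the translation inhibitor IFIT3 (1.18 ± 0.24) and the DNA sensor IFI16 (0.95 ± 0.16). OAS1 and OAS3, which make the activator of ribonuclease L, rose by 1.89 ± 0.54 (adjusted p = 0.0457) and 1.14 ± 0.29 (adjusted p = 0.0289). PARP12, an ADP-ribosyltransferase, rose by 0.48 ± 0.13 (adjusted p = 0.0353). Of the regulators, IRF9 rose by 0.96 ± 0.26 (adjusted p = 0.0352) and IRF7 by 0.91 ± 0.21 (adjusted p = 0.0186), and TRIM14, an adaptor of antiviral signalling, by 0.53 ± 0.15 (adjusted p = 0.0465). The 1 member that fell was the RNA sensor IFIH1, also known as MDA5, at -0.95 ± 0.20 (adjusted p = 0.0126), named after its values were seen. Members that did not pass included RSAD2 at -0.17, MX2 at -0.26, OAS2 at 0.02 and ISG15 at 1.07. Array 2 was also the highest for FCER1A, H2BC12 and GPR18, so it stood apart beyond interferon genes. OAS1 lost its call without K1, K2, S1, S2, S3, UK2, US1, US2 or US3 (adjusted p 0.0624 to 0.124), OAS3 without K1, K2, S2 or S3 (adjusted p 0.0717 to 0.114) and PARP12 without K1, K2, S2, S3, UK2, US1 or US2 (adjusted p 0.0505 to 0.129). IRF9 lost its call without K1, K2, S1, S3, UK2 or US1 (adjusted p 0.0517 to 0.117), IRF7 without K1, K2, S1 or S3 (adjusted p 0.0569 to 0.0676) and TRIM14 without K1, K2, S2, S3, UK1, UK2, US1, US2 or US3 (adjusted p 0.0589 to 0.169). IFIH1 lost its call without K1 or S3 (adjusted p 0.0534 to 0.0541).

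The upstream sequence of the interferon genes is shown because it holds the letters of the element to which interferon-activated factors bind. The core searched was TTTC, then 2 unspecified bases, then TTTC, on either strand, in the 250 bases before the gene start as RefSeq gives it (GRCh38.p14). It was present upstream of 9 of 13 members that rose (69.2%), of 9 of 20 that did not pass (45.0%), and of 2.56% of all 9562 genes with a promoter entry. The element thus occurred in members that did not pass as well, and the promoter of IFIH1, which fell, also held it. In the sequences below, the capitals mark each match, and the strand is that of the gene.
IFI6, chr1:27672251-27672310 (minus strand): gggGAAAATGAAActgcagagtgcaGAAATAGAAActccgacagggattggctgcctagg
IFI27, chr14:94110616-94110675 (plus strand): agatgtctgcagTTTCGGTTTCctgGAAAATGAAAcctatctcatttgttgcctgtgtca
IFI44, chr1:78649746-78649788 (plus strand): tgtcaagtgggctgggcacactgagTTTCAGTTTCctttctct
IFITM1, chr11:313975-314034 (plus strand): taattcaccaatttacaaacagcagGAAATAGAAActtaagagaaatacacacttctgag
OAS3, chr12:112938437-112938473 (plus strand): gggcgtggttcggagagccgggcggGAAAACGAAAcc
IFI6 and IFI27 show 2 matches each in these windows, and the 3 others 1 each. A match is a description of these letters and not evidence that a factor binds.

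**Figure D4:**
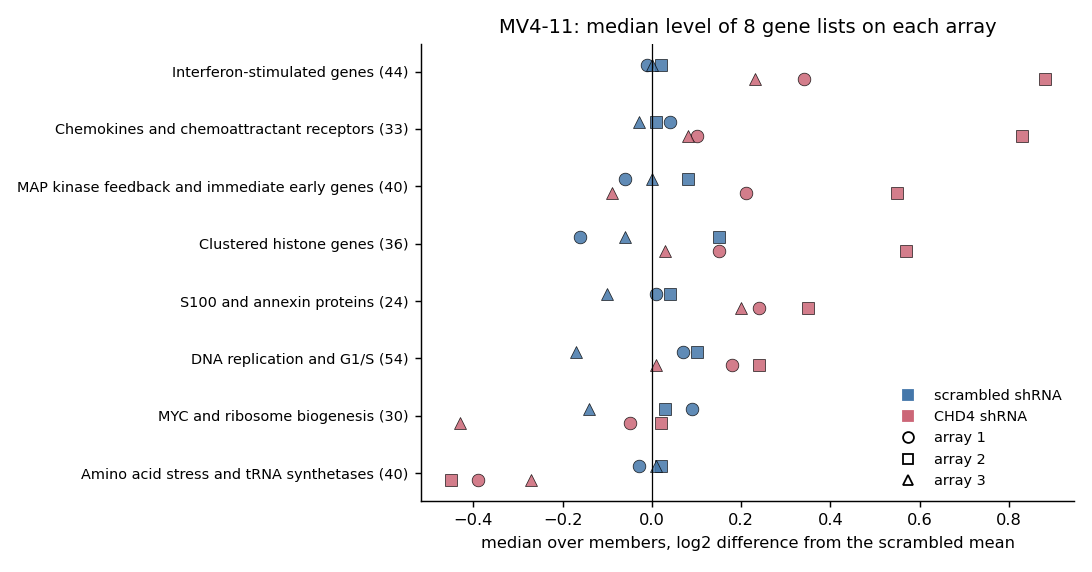
Median over the measured members of 8 gene lists (number of members in brackets) of each array's difference from the mean of the 3 scrambled arrays, on a log2 scale (x axis), with 1 marker per MV4-11 array. Array 2 of CHD4 shRNA is at 0.88 for interferon-stimulated genes and 0.57 for clustered histone genes, while all 3 CHD4 shRNA arrays lie between -0.45 and -0.27 for amino acid stress genes.

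Genes of innate immune signalling and inflammation rose in 5 of 38 cases and fell in 2. IL1B, the inflammatory cytokine, read 7.43, 7.40 and 7.64 on the scrambled arrays and 9.54, 10.22 and 8.63 on the CHD4 shRNA arrays. Both of its probe sets rose, the representative one by 1.97 ± 0.34 (adjusted p = 0.00446) with separate groups. AIM2, a sensor of cytosolic DNA that activates the inflammasome, read 4.36, 4.39 and 4.67 on the scrambled arrays and 6.92, 6.99 and 5.58 on the CHD4 shRNA arrays and changed by 2.02 ± 0.41 (adjusted p = 0.0101). The interleukin 1 receptor antagonist IL1RN rose by 1.03 ± 0.25 (adjusted p = 0.024), the lipopeptide receptor TLR1 by 0.95 ± 0.24 (adjusted p = 0.0268) and the NF-kB inhibitor NFKBIE by 0.55 ± 0.14 (adjusted p = 0.0284). None of the other 4 IL1RN probe sets passed. RIPK2, the kinase below NOD receptors, and IRAK1, a kinase of Toll-like receptor signalling, changed by -0.72 ± 0.17 (adjusted p = 0.0176) and -0.42 ± 0.11 (adjusted p = 0.0332). The rises numbered 1 (without K1) to 9 (without K3) with 1 array left out. The Toll-like receptor and NF-kB signalling list had 10 higher and 3 lower members with the block, and, with 1 array left out, 0 (without K1, S2 or S3) to 3 (without UK3) lower. The other RIPK2 probe set did not pass (-0.40). AIM2 lost its call without K1 (adjusted p 0.0553), IL1RN without K1, S1 or S3 (adjusted p 0.0589 to 0.0814) and TLR1 without K1, K2, S1 or S3 (adjusted p 0.0701 to 0.108). NFKBIE lost its call without K1, K2, S2 or S3 (adjusted p 0.0767 to 0.116), RIPK2 without K1, K2, S2 or S3 (adjusted p 0.0532 to 0.0854) and IRAK1 without K1, K3, S1, S2, S3 or US1 (adjusted p 0.05 to 0.134).

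Enzymes and receptors of eicosanoids, the oxygenated lipids made from arachidonic acid, rose in 8 of 28 cases, with 1 fall. ALOX5AP, the protein that presents arachidonic acid to 5-lipoxygenase, read 10.03, 10.26 and 10.13 on the scrambled arrays and 11.73, 12.13 and 11.31 on the CHD4 shRNA arrays. It was separate on every array, at a change of 1.58 ± 0.21 (adjusted p = 0.00113). AKR1C3, which reduces prostaglandins and steroids, read 4.2, 4.19 and 4.39 on the scrambled arrays and 6.71, 6.73 and 5.85 on the CHD4 shRNA arrays. All CHD4 shRNA arrays were over 1 unit above the controls, and the change was 2.17 ± 0.43 (adjusted p = 0.00835). AKR1C1 and AKR1C2 rose by 0.67 ± 0.18 (adjusted p = 0.0362) and 0.69 ± 0.16 (adjusted p = 0.0184), but the 3 genes are closely related and their probe sets may share transcripts. Thromboxane synthase, TBXAS1, rose by 0.47 ± 0.09, CYP4F2 by 0.79 ± 0.15, cyclooxygenase 1 (PTGS1) by 0.77 ± 0.18 and PTGER4, a receptor of prostaglandin E2, by 0.67 ± 0.18. PTGER2, another receptor of that prostaglandin, changed by -1.18 ± 0.19 (adjusted p = 0.00347). The 8 rises numbered 4 (without K1 or K2) to 9 (without K3) with 1 array left out. The 2 other AKR1C1 probe sets did not pass (0.08 to 0.33). AKR1C1 lost its call without K1, K2, S1, S2, S3, UK2 or US2 (adjusted p 0.0526 to 0.123), AKR1C2 without K1, K2 or S1 (adjusted p 0.06 to 0.065) and PTGS1 without K1, K2, S2 or S3 (adjusted p 0.0636 to 0.0963). PTGER4 lost its call without K1, K2, S1, S3 or US1 (adjusted p 0.05 to 0.117).

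Cytokine and growth factor receptors rose in 4 of 48 cases and fell in 4. IL1R2 is described above. AXL, a receptor kinase for GAS6, read 5.29, 6.06 and 5.43 on the scrambled arrays and 6.94, 8.54 and 7.40 on the CHD4 shRNA arrays. Its CHD4 shRNA arrays were all above the controls and array 2 the highest, at a change of 2.03 ± 0.32 (adjusted p = 0.00273), and its other probe set stood at -0.05. CSF2RB, the beta chain shared by the receptors for GM-CSF, interleukin 3 and interleukin 5, rose by 1.14 ± 0.22 (adjusted p = 0.00775). With only the 6 MV4-11 arrays fitted, its limma adjusted p was 0.0604. The fourth was IL18RAP, of the interleukin 18 receptor, at 2.13 ± 0.56 (adjusted p = 0.0316). IL6R changed by -0.73 ± 0.11 (adjusted p = 0.00213), IGF1R by -0.51 ± 0.10 (adjusted p = 0.00904) and IL15RA by -0.78 ± 0.17 (adjusted p = 0.0127), while TNFRSF14 changed by -0.70 ± 0.18 (adjusted p = 0.0294), and the other probe sets of IL6R and IGF1R did not pass. FLT3 did not pass, at 0.06. Of 16 measured genes of the HOXA, MEIS1 and FLT3 programme, KIT, the stem cell factor receptor, was the only one past the threshold, at 0.72 ± 0.12 (adjusted p = 0.00385), and MEIS1 stood at 0.22. The HOXA, MEIS1 and FLT3 programme list had 1 higher and 1 lower members with the block. The cytokine and growth factor receptors list had, with 1 array left out, 2 (without K1 or S3) to 5 (without K3) lower. IL18RAP lost its call without K1, K2, S1, S2 or S3 (adjusted p 0.0622 to 0.122), IL15RA without K1, S2 or S3 (adjusted p 0.0526 to 0.0631) and TNFRSF14 without K1, K2, S1 or S3 (adjusted p 0.0615 to 0.116).

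Among 38 lineage transcription factors, ID2, an inhibitor of E proteins, rose by 0.60 ± 0.11 (adjusted p = 0.00626), and ERG and MYB changed by -0.58 ± 0.14 (adjusted p = 0.0209) and -0.34 ± 0.09 (adjusted p = 0.0349). CEBPA stood at 0.21 and SPI1 at 0.11, both short of the threshold. The other 2 ERG probe sets did not pass (-0.25 and -0.09). Within the MAP kinase feedback and immediate early list, DUSP6, a phosphatase that is induced by ERK and switches it off, read 8.95, 9.32 and 8.21 on the scrambled arrays and 10.86, 11.33 and 9.47 on the CHD4 shRNA arrays. All 3 DUSP6 probe sets rose, the representative one by 1.73 ± 0.41 (adjusted p = 0.0206), and the rise of array 3 was the smallest. PIM2, a survival kinase, rose by 0.47 ± 0.11 (adjusted p = 0.022) and DUSP3 changed by -0.57 ± 0.12 (adjusted p = 0.0145). Of 40 measured members of that list, 2 rose and 2 fell, or 5.0% each, near the 4.73% and 4.69% over all genes. The list's median was 0.22 with all arrays and 0.06 without CHD4 shRNA array 2. The myeloid and stem cell transcription factors list had 5 higher and 3 lower members with the block, and, with 1 array left out, 1 to 4 (without K3) higher and 0 (without K1 or S1) to 4 (without K3) lower. The MAP kinase feedback and immediate early genes list had 12 higher and 3 lower members with the block, and, with 1 array left out, 0 (without K1, K2 or S3) to 9 (without K3) higher and 0 (without K1, S2 or S3) to 3 (without K2) lower. The other MYB probe set did not pass (-0.29). A DUSP3 probe set at -0.14 did not pass, while another at -1.09 did. ERG lost its call without K1, S1 or S2 (adjusted p 0.062 to 0.0733), MYB without K1, K2, S1, S3, US1 or US2 (adjusted p 0.0506 to 0.126) and DUSP6 without K1, K2 or S3 (adjusted p 0.0714 to 0.0916). PIM2 lost its call without K1, K2, S1 or S3 (adjusted p 0.0595 to 0.0873) and DUSP3 without K1, S2 or S3 (adjusted p 0.0537 to 0.0738).

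Of the genes for amino acid supply, many fell. ATF4 is the transcription factor that cells induce when amino acids run short, and its targets make, import and charge amino acids. Of 40 measured members of this group, 16 fell (40%, against 4.69% of all genes) and none rose, at a median of -0.35. Below 0 were 34 of the 40. On each of the 3 CHD4 shRNA arrays the members' median lay below the controls, at -0.39, -0.45 and -0.27, and without array 2 the median change was -0.34. Members that fell numbered 7 (without K1) to 19 (without K3) with 1 array left out, and 22 with the block.

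ASNS, asparagine synthetase, read 9.76, 9.86 and 9.75 on the scrambled arrays and 8.30, 8.05 and 8.58 on the CHD4 shRNA arrays. The controls lay within about 0.1 and all CHD4 shRNA arrays were over 1 unit lower, at a change of -1.48 ± 0.23 (adjusted p = 0.00255), or 2.79-fold lower. ATF4 itself read 12.64, 12.67 and 12.73 on the scrambled arrays and 12.15, 12.10 and 12.29 on the CHD4 shRNA arrays and fell by a smaller amount, -0.50 ± 0.09 (adjusted p = 0.00622). TRIB3, a pseudokinase induced by ATF4, changed by -0.77 ± 0.13 (adjusted p = 0.00385). PSAT1, of serine synthesis, changed by -0.87 ± 0.14, ALDH18A1, of proline synthesis, by -0.80 ± 0.11, and SLC7A11, the cystine importer, by -1.03 ± 0.23 (adjusted p = 0.0163). Among enzymes that charge tRNA, IARS1 changed by -0.56 ± 0.10 (adjusted p = 0.00642), EPRS1 by -0.75 ± 0.17 (adjusted p = 0.0168) and AARS1 by -0.51 ± 0.13 (adjusted p = 0.0297), the last 2 named after their values were seen. Members that did not pass included SLC3A2 at -0.35, CHAC1 at -0.09, ATF3 at 0.20 and HARS1 at 0.30. An SLC7A11 probe set at -0.77 did not pass, while another at -0.49 did. SLC7A11 lost its call without K1, K2, S1 or S3 (adjusted p 0.0514 to 0.0798), EPRS1 without K1, K2, S1 or S3 (adjusted p 0.0527 to 0.0663) and AARS1 without K1, K2, S2 or S3 (adjusted p 0.083 to 0.106).

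Upstream sequence of 3 members that fell is shown because it holds the 8 letters TGATGNAA, a core of the amino acid response element to which ATF4 binds with its partners. The search covered both strands of the 250 bases before the gene start. The letters were present in 3 of 13 members that fell and had a promoter entry (23.1%), in 2 of 20 that did not pass (10.0%) and in 1.98% of all 9562 genes. Capitals mark the match, written on the strand of the gene.
ASNS, chr7:97872444-97872501 (minus strand): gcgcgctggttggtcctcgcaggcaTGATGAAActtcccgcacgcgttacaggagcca
AARS1, chr16:70289661-70289718 (minus strand): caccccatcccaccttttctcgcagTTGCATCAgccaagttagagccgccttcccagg
IARS1, chr9:92293698-92293735 (minus strand): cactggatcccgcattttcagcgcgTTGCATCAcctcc
In ASNS the letters run in the direction of the gene, and in AARS1 and IARS1 their reverse complement does. The other 10 members that fell did not hold these letters in this window.

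Among nutrient transporters, falls outnumbered rises. Of 43 solute carriers, 8 fell and 2 rose, with the falls at 4 (without K1) to 8 with 1 array left out. SLC2A5, the fructose transporter, read 9.69, 9.54 and 9.70 on the scrambled arrays and 8.81, 8.75 and 8.77 on the CHD4 shRNA arrays. Both groups were tight, and the change was -0.87 ± 0.11 (adjusted p = 0.000862). SLC1A3, a glutamate transporter, changed by -1.04 ± 0.18, SLC26A2, a sulphate transporter, by -0.68 ± 0.12, and SLC38A2, a transporter of neutral amino acids, by -0.49 ± 0.10. SLC2A6, a lysosomal hexose transporter, and SLC47A1, an exporter of organic cations, rose by 0.73 ± 0.16 (adjusted p = 0.0153) and 0.56 ± 0.14 (adjusted p = 0.025). Of 23 genes for iron and haem, 4 fell and none rose. HEBP1, a haem-binding protein, changed by -0.82 ± 0.13 (adjusted p = 0.00315), the haem synthesis enzymes PPOX and FECH by -0.63 ± 0.12 (adjusted p = 0.00687) and -0.50 ± 0.13 (adjusted p = 0.0266), and the iron-regulatory aconitase ACO1 by -0.38 ± 0.10 (adjusted p = 0.0319). The solute carriers for nutrients list had 4 higher and 11 lower members with the block, and, with 1 array left out, 0 (without K2 or S3) to 5 (without K3) higher. The iron and haem list had 1 higher and 4 lower members with the block, and, with 1 array left out, 2 (without K1, K2, S1, S2 or S3) to 4 lower. The other FECH probe set did not pass (-0.54). SLC2A6 lost its call without K1, K2 or S3 (adjusted p 0.0529 to 0.0668), SLC47A1 without K2, S1, S2 or S3 (adjusted p 0.0581 to 0.0839) and FECH without K1, K2, S1, S2 or S3 (adjusted p 0.0638 to 0.0836). ACO1 lost its call without K1, K2, S1, S2 or S3 (adjusted p 0.0644 to 0.121).

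Genes around LKB1, AMPK and mTOR, which match growth to energy supply, fell in 5 of 31 cases and rose in 1. Besides CAB39L, PRKAG1, the gamma subunit of AMPK, read 9.23, 9.61 and 9.42 on the scrambled arrays and 8.18, 8.25 and 8.50 on the CHD4 shRNA arrays. Its groups did not overlap, at a change of -1.11 ± 0.14 (adjusted p = 0.000839). MLST8, a subunit of both mTOR complexes, changed by -0.71 ± 0.13 (adjusted p = 0.00579), the translation repressor EIF4EBP1 by -0.41 ± 0.09 (adjusted p = 0.0165) and the mTOR inhibitor DEPTOR by -0.97 ± 0.26 (adjusted p = 0.0333). SIK3, a kinase activated by LKB1, was the 1 rise, at 0.56 ± 0.16 (adjusted p = 0.0419), with groups that overlapped. LKB1 itself, STK11, stood at 0.21, and CAB39, the close relative of CAB39L, at 0.00. The LKB1, AMPK and mTOR list had 4 higher and 9 lower members with the block, and, with 1 array left out, 3 (without K1 or S2) to 7 (without K3) lower. The 3 other SIK3 probe sets did not pass (0.13 to 0.59). EIF4EBP1 lost its call without K1 or S2 (adjusted p 0.0667 to 0.0703), DEPTOR without K1, K2, S2, S3 or US1 (adjusted p 0.0515 to 0.125) and SIK3 without K1, K2, S1, S3, UK1, UK2, US1, US2 or US3 (adjusted p 0.0538 to 0.156).

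MYC and genes of ribosome biogenesis and nucleotide synthesis fell in 5 of 30 cases, and none rose, at 3 (without K1 or S3) to 6 (without K2, UK1, UK3 or US3) with 1 array left out. MYC, the growth-promoting transcription factor, read 11.75, 12.06 and 11.97 on the scrambled arrays and 11.12, 11.45 and 10.55 on the CHD4 shRNA arrays. The groups did not overlap, and here array 3, which was the least changed over most genes, was the lowest. The change was -0.89 ± 0.20 (adjusted p = 0.0176). MXI1, a MYC antagonist, changed by -1.29 ± 0.24 (adjusted p = 0.00642). CAD, of pyrimidine synthesis, changed by -0.60 ± 0.10 (adjusted p = 0.0033), IMPDH2, of guanine nucleotide synthesis, by -0.66 ± 0.12 (adjusted p = 0.00476), and POLR3D, a subunit of RNA polymerase III, by -0.67 ± 0.15 (adjusted p = 0.0145). Members' medians were -0.05, 0.02 and -0.43 on the 3 CHD4 shRNA arrays, so array 3 had the lowest. The MYC and ribosome biogenesis list had 0 higher and 8 lower members with the block. MYC lost its call without K1, S2 or S3 (adjusted p 0.0546 to 0.0637) and POLR3D without K1 or S3 (adjusted p 0.062 to 0.0764).

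Glycolysis and hypoxia genes fell in 5 of 34 cases and rose in 3. HK2, hexokinase 2, changed by -0.68 ± 0.14 (adjusted p = 0.0122), the glycolytic isomerase GPI by -0.37 ± 0.08 (adjusted p = 0.0148), PDK1, which restrains pyruvate oxidation, by -0.73 ± 0.16 (adjusted p = 0.0156), and VEGFA, the endothelial growth factor, by -0.71 ± 0.15 (adjusted p = 0.0103) on a probe set whose 3 companions fell too. The muscle phosphofructokinase PFKM and the neuronal enolase ENO2 rose by 0.56 ± 0.10 (adjusted p = 0.00649) and 0.57 ± 0.11 (adjusted p = 0.00667), and the kinase PDK3 by 0.58 ± 0.13 (adjusted p = 0.0171). DDIT4, a stress-induced mTOR inhibitor on this and the amino acid list, changed by -0.95 ± 0.23 (adjusted p = 0.0234). Respiratory chain genes hardly passed: NDUFV1 and UQCRC2 changed by -0.53 ± 0.12 and -0.53 ± 0.14 among 42. Of 36 genes of cholesterol and fatty acid handling, PMVK, an enzyme of the mevalonate pathway, was the 1 that passed, at -0.50 ± 0.11 (adjusted p = 0.0183). The glycolysis and hypoxia response list had 7 higher and 7 lower members with the block, and, with 1 array left out, 2 (without K1, S2 or S3) to 8 (without K3) higher and 2 (without K1) to 7 (without K3) lower. The mitochondrial respiration list had 5 higher and 5 lower members with the block, and, with 1 array left out, 0 to 3 (without K3) higher and 0 (without K1, K2 or S2) to 6 (without K3) lower. The cholesterol, fatty acid and sterol handling list had 0 higher and 3 lower members with the block, and, with 1 array left out, 0 (without K1, S1 or S2) to 3 (without K3) lower. The other HK2 probe set did not pass (-0.12). HK2 lost its call without K1 or S3 (adjusted p 0.0541 to 0.0585), GPI without K1, S1 or S2 (adjusted p 0.0532 to 0.0539) and PDK1 without K2 or S1 (adjusted p 0.05 to 0.0572). PDK3 lost its call without K1, S2 or S3 (adjusted p 0.0506 to 0.0693), DDIT4 without K1, K2, S2 or S3 (adjusted p 0.0668 to 0.098) and NDUFV1 without K1, K2 or S2 (adjusted p 0.0719 to 0.0826). UQCRC2 lost its call without K1, K2, S1, S2 or S3 (adjusted p 0.0541 to 0.122) and PMVK without K1, S1 or S2 (adjusted p 0.0639 to 0.0706).

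Lysosomal proteins rose in 5 of 41 cases and fell in 1. IDS, iduronate sulphatase, read 8.44, 8.29 and 8.52 on the scrambled arrays and 9.62, 9.75 and 9.21 on the CHD4 shRNA arrays. It was separate between groups at 1.11 ± 0.16 (adjusted p = 0.00169), and 4 of its 8 other probe sets were also past the threshold. CTSA, a carboxypeptidase that protects NEU1, rose by 0.84 ± 0.16 (adjusted p = 0.0079), the sialidase NEU1 by 0.76 ± 0.17 (adjusted p = 0.0154), the proton pump subunit ATP6V1H by 0.47 ± 0.11 (adjusted p = 0.0214) and cathepsin Z (CTSZ) by 0.49 ± 0.13 (adjusted p = 0.0374). Antioxidant genes rose in 4 of 33 cases and fell in 2. The pentose phosphate enzyme PGD rose by 0.59 ± 0.13 (adjusted p = 0.0162), catalase (CAT) by 0.43 ± 0.11 (adjusted p = 0.0253), and glutathione synthetase (GSS) changed by -0.38 ± 0.10 (adjusted p = 0.0383). CYBB, NCF1 and SLC7A11 are also on that list. Of stress genes, EDEM1, of protein disposal in the endoplasmic reticulum, rose by 0.71 ± 0.15 (adjusted p = 0.0126) and HERPUD1 of the same pathway changed by -0.82 ± 0.21 (adjusted p = 0.0268) among 29. The chaperone partner BAG3 and the small heat shock protein HSPB1 rose by 0.54 ± 0.13 and 0.49 ± 0.12 among 25. The lysosomal proteins list had 9 higher and 6 lower members with the block, and, with 1 array left out, 2 (without K1 or S3) to 7 (without K3) higher and 1 to 7 (without K3) lower. The antioxidant and glutathione genes list had 7 higher and 3 lower members with the block, and, with 1 array left out, 0 (without K1) to 7 (without K3) higher and 0 (without K1, K2 or S1) to 4 (without K3) lower. The ER chaperones and unfolded protein response list had 2 higher and 4 lower members with the block, and, with 1 array left out, 0 (without K1, S2 or S3) to 3 (without K3) lower. The heat shock proteins list had 4 higher and 1 lower members with the block, and, with 1 array left out, 0 (without K1, K2 or S3) to 7 (without K3) higher. Short of the threshold were the other CTSZ probe set (-0.17), the 2 other CAT probe sets (0.55 to 0.56) and the other GSS probe set (-0.37). NEU1 lost its call without K1, S2 or S3 (adjusted p 0.0522 to 0.0738), ATP6V1H without K1, S2 or S3 (adjusted p 0.0587 to 0.0893) and CTSZ without K1, K2, S1, S2, S3, UK2 or US1 (adjusted p 0.054 to 0.126). PGD lost its call without K1, K2 or S3 (adjusted p 0.0543 to 0.0682), CAT without K1, K2, S1 or S3 (adjusted p 0.0741 to 0.0929) and GSS without K1, K2, S1, S2, UK2, US1, US2 or US3 (adjusted p 0.05 to 0.146). EDEM1 lost its call without K1 or S3 (adjusted p 0.0552 to 0.0579), HERPUD1 without K1, S2 or S3 (adjusted p 0.0656 to 0.119) and BAG3 without K1, K2, S1 or S3 (adjusted p 0.0552 to 0.0883). HSPB1 lost its call without K1, K2, S2 or S3 (adjusted p 0.0615 to 0.118).

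Repair genes are given by list, with falls outnumbering rises mainly in the excision, mismatch and crosslink list. Of 35 genes of excision, mismatch and crosslink repair, 6 fell and 1 rose, with the falls at 0 (without K1) to 6 with 1 array left out. XPA, the damage-verifying factor of nucleotide excision repair, read 8.33, 8.24 and 8.43 on the scrambled arrays and 7.57, 7.18 and 7.96 on the CHD4 shRNA arrays. The groups did not overlap, though array 3 lay close to the controls, at a change of -0.76 ± 0.16 (adjusted p = 0.013). ERCC1, of the excision nuclease, changed by -0.41 ± 0.10, PARP2, a sensor of strand breaks, by -0.59 ± 0.15, and the DNA ligase LIG3 by -0.45 ± 0.10. The mismatch repair gene PMS1 changed by -0.76 ± 0.18 and the Fanconi anaemia gene FANCF by -0.50 ± 0.13. ERCC3, a helicase of the repair factor TFIIH, was the 1 rise, at 0.38 ± 0.10 (adjusted p = 0.0381). Of 35 genes of double-strand break repair and checkpoints, 3 fell and 1 rose. That list's median was 0.01, with 18 members above 0 and 17 below, so it had no common direction. MDC1, the adaptor that binds phosphorylated histone H2AX, read 9.88, 10.09 and 10.10 on the scrambled arrays and 9.05, 9.08 and 9.25 on the CHD4 shRNA arrays. Both of its probe sets fell, the representative one at -0.90 ± 0.12 (adjusted p = 0.00117). The checkpoint kinase CHEK2 changed by -0.89 ± 0.17 (adjusted p = 0.00642) and the helicase WRN by -0.63 ± 0.16 (adjusted p = 0.028). The excision, mismatch and crosslink repair list had 2 higher and 6 lower members with the block. The double-strand break repair and checkpoints list had 5 higher and 4 lower members with the block, and, with 1 array left out, 0 (without K1, S2 or S3) to 3 (without K3) higher. The other LIG3 probe set did not pass (-0.26). XPA lost its call without K1 or S3 (adjusted p 0.0529 to 0.0536), ERCC1 without K1 or S2 (adjusted p 0.0808 to 0.0925) and PARP2 without K1, K2, S2 or S3 (adjusted p 0.0653 to 0.115). LIG3 lost its call without K1, K2 or S2 (adjusted p 0.0616 to 0.0744), PMS1 without K1, K2, S1 or S3 (adjusted p 0.0505 to 0.0741) and FANCF without K1, K3, S1 or S2 (adjusted p 0.0617 to 0.121). ERCC3 lost its call without K1, K2, S1, S2, S3, US1 or US2 (adjusted p 0.0542 to 0.128) and WRN without K1, K2, S1 or S3 (adjusted p 0.0547 to 0.101).

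Genes that handle cytarabine and anthracyclines, the standard drugs of acute myeloid leukaemia, rose in 5 of 39 cases and fell in 1. AKR1C1, AKR1C2 and AKR1C3, which can reduce anthracyclines, are 3 of the 5. ABCC1, a drug efflux pump, rose by 0.51 ± 0.12 (adjusted p = 0.0174) and GSTM2, a glutathione transferase, by 0.62 ± 0.15 (adjusted p = 0.0216). GSTP1, the main glutathione transferase of many tumours, changed by -0.71 ± 0.16 (adjusted p = 0.0161). The rises numbered 1 (without K1 or S1) to 9 (without K3) with 1 array left out. The cytarabine and anthracycline handling list had 9 higher and 4 lower members with the block. The other ABCC1 probe set did not pass (0.32). ABCC1 lost its call without K1, K2, S1 or S3 (adjusted p 0.0507 to 0.0662), GSTM2 without K1, S1 or S2 (adjusted p 0.0547 to 0.0817) and GSTP1 without K1, K2 or S1 (adjusted p 0.0543 to 0.0726).

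Apoptosis regulators rose in 3 of 39 cases and fell in 2. CASP8, the initiator caspase of death receptors, read 8.39, 8.50 and 8.22 on the scrambled arrays and 9.06, 9.27 and 9.0 on the CHD4 shRNA arrays. Its groups were separate and both of its probe sets rose, the representative one by 0.74 ± 0.14 (adjusted p = 0.00615). DAPK1, a death-associated kinase, rose by 0.51 ± 0.11 (adjusted p = 0.0125) and the BH3-only protein BIK by 0.70 ± 0.15 (adjusted p = 0.0126). BCL2, which blocks mitochondrial apoptosis, changed by -0.48 ± 0.14 (adjusted p = 0.0474) and BNIP3L, of mitochondrial turnover, by -0.50 ± 0.13 (adjusted p = 0.0256). None of 3 other BCL2 probe sets passed, at -0.15 to 0.04. Of 23 known p53 targets, 3 rose and none fell, namely RPS27L (0.53 ± 0.09, adjusted p = 0.00357), TP53I3 (0.98 ± 0.28, adjusted p = 0.044) and SESN1 (0.36 ± 0.10, adjusted p = 0.0454). The apoptosis regulators list had 10 higher and 3 lower members with the block, and, with 1 array left out, 1 (without K1) to 5 (without K3) higher and 0 (without K2, S1, S2 or S3) to 2 lower. The p53 targets list had 5 higher and 2 lower members with the block, and, with 1 array left out, 1 (without S1, S2, S3, UK1, UK2, US1 or US2) to 6 (without K3) higher. Short of the threshold were the other DAPK1 probe set (0.23) and the other BNIP3L probe set (-0.40). DAPK1 lost its call without K1 (adjusted p 0.0605), BIK without K1 or S3 (adjusted p 0.0544 to 0.0552) and BCL2 without K1, K2, K3, S1, S2, S3, UK1, UK2, US1 or US2 (adjusted p 0.0519 to 0.133). BNIP3L lost its call without K2, S1, S2 or S3 (adjusted p 0.0525 to 0.0765), TP53I3 without S1, S2, S3, UK1, UK2, UK3, US1, US2 or US3 (adjusted p 0.0501 to 0.148) and SESN1 without K1, K2, K3, S1, S2, S3, UK1, UK2, US1 or US2 (adjusted p 0.0531 to 0.163).

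Cell cycle genes mostly did not pass, although many stood above 0. Of 54 genes of DNA replication and G1/S, 2 rose, at a list median of 0.16, and of 47 of G2/M and mitosis 1 rose, at 0.15. CCND3, a D-type cyclin, rose by 1.09 ± 0.26 (adjusted p = 0.0216), CCNE2, a cyclin of S phase entry, by 1.31 ± 0.33 (adjusted p = 0.0269) and the mitotic kinesin KIF14 by 0.74 ± 0.17 (adjusted p = 0.0203). Clustered histone genes rose in 7 of 36 cases. H2BC12, an H2B gene, read 9.87, 9.69 and 9.58 on the scrambled arrays and 11.67, 13.01 and 10.50 on the CHD4 shRNA arrays. Array 2 was over 1 unit above array 1, and array 3 lay less than 1 unit above the controls, at a change of 2.01 ± 0.44 (adjusted p = 0.0142). H2BC5 rose by 1.58 ± 0.36, H2BC6 by 1.25 ± 0.32, H2BC9 by 1.35 ± 0.32, the linker histone gene H1-2 by 1.31 ± 0.35, H4C11 by 0.96 ± 0.24 and H2AC17 by 0.81 ± 0.23. The 7 rises numbered 0 (without K1 or S3) to 14 (without K3) with 1 array left out, and the list's median fell from 0.24 to 0.08 without CHD4 shRNA array 2. Histone genes are near-identical, so these probe sets may read several of them. The DNA replication and G1/S list had 16 higher and 3 lower members with the block, and, with 1 array left out, 0 (without K1, K2 or S3) to 10 (without K3) higher. The G2/M and mitosis list had 16 higher and 2 lower members with the block, and, with 1 array left out, 0 to 3 (without K3) lower. The clustered histone genes list had 12 higher and 0 lower members with the block. CCND3 lost its call without K1, K2 or S3 (adjusted p 0.0706 to 0.0902), CCNE2 without K1, K2, S1, S2 or S3 (adjusted p 0.0597 to 0.0967) and KIF14 without K1 or S2 (adjusted p 0.0783 to 0.0924). H2BC12 lost its call without K1 or S3 (adjusted p 0.0528 to 0.0538), H2BC5 without K1, S1 or S3 (adjusted p 0.0546 to 0.0668) and H2BC6 without K1, S1 or S3 (adjusted p 0.0822 to 0.0961). H2BC9 lost its call without K1, S1 or S3 (adjusted p 0.0546 to 0.079), H1-2 without K1, K2, S1, S2, S3, US1 or US2 (adjusted p 0.0523 to 0.133) and H4C11 without K1, K2, S1, S2 or S3 (adjusted p 0.0566 to 0.116). H2AC17 lost its call without K1, K2, S1, S2, S3, UK2 or US2 (adjusted p 0.0572 to 0.137).

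Of 41 genes of TGF-beta, Wnt and Notch signalling, 4 fell and none rose. SMAD3, which carries the TGF-beta signal, changed by -0.95 ± 0.21 (adjusted p = 0.0165), its target TGFBI by -1.04 ± 0.28 (adjusted p = 0.035), the Notch ligand JAG1 by -0.70 ± 0.19 (adjusted p = 0.0349) and the receptor NOTCH2 by -0.49 ± 0.13 (adjusted p = 0.035). The TGF-beta, Wnt and Notch signalling list had 0 higher and 8 lower members with the block, and, with 1 array left out, 0 (without K1, S2 or S3) to 6 (without K3) lower. The 3 other NOTCH2 probe sets did not pass (-0.49 to -0.42). JAG1 probe sets at -0.08 and -0.45 did not pass, while another at -0.91 did. A SMAD3 probe set at -0.25 did not pass, while others at -0.49 and -0.82 did. SMAD3 lost its call without K1, K2, S2 or S3 (adjusted p 0.0526 to 0.0817), TGFBI without K1, K2, S2, S3, UK2 or US1 (adjusted p 0.0514 to 0.127) and JAG1 without K1, S2, S3, US1 or US2 (adjusted p 0.051 to 0.153). NOTCH2 lost its call without K1, K2, S1, S2, S3 or US1 (adjusted p 0.0523 to 0.134).

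Secreted proteases and matrix genes rose in 5 of 49 cases and fell in 4. LGALS1, a galactoside-binding lectin, rose by 0.62 ± 0.13 (adjusted p = 0.00968), the matrix proteins SPARC and SPP1 by 0.69 ± 0.18 (adjusted p = 0.0331) and 1.58 ± 0.43 (adjusted p = 0.0352), the metalloproteinase MMP7 by 0.82 ± 0.23 (adjusted p = 0.0417) and MMP9 as above. PLAU, the urokinase that activates plasminogen, changed by -0.87 ± 0.20 (adjusted p = 0.0194) and the protease inhibitor SERPINE2 by -0.79 ± 0.21 (adjusted p = 0.0353), beside LGALS3 and PAM. Glycosyltransferases rose in 6 of 40 cases and fell in 3. B4GALT5, which makes lactosylceramide, rose by 0.85 ± 0.14 (adjusted p = 0.00315), GALNT7 by 1.02 ± 0.18, and the branching enzyme MGAT5 by 0.67 ± 0.14. The sialyltransferase ST6GAL1 changed by -0.71 ± 0.13 and EXTL2 by -0.87 ± 0.16. Ion channels and pumps rose in 4 of 39 cases and fell in 4. ATP1B1, a subunit of the sodium pump, read 7.60, 7.89 and 7.87 on the scrambled arrays and 8.87, 9.03 and 8.95 on the CHD4 shRNA arrays. Both of its probe sets rose, the representative one by 1.16 ± 0.16 (adjusted p = 0.00124). KCNMB1, a potassium channel subunit, rose by 1.49 ± 0.25, the cation channel TRPV2 by 0.86 ± 0.15 and the calcium pump ATP2A3 by 0.64 ± 0.14. The chloride transporter CLCN3 fell on all 4 of its probe sets, at -0.79 ± 0.17 on the representative one. The ATP-gated channels P2RX4 and P2RX5 changed by -0.49 ± 0.14 and -0.53 ± 0.15, and SRI is also on this list. The proteases, inhibitors and matrix list had, with 1 array left out, 2 (without S1, S2 or S3) to 6 (without K3) higher and 1 (without K1, K2, S2 or S3) to 5 (without K3 or UK3) lower. The glycosyltransferases and sialyltransferases list had, with 1 array left out, 3 (without K1, S1 or S3) to 7 (without K3) higher. The ion channels and pumps list had 8 higher and 7 lower members with the block, and, with 1 array left out, 3 (without K1 or S3) to 7 (without K3) higher and 1 (without K1, K2 or S3) to 7 (without K3) lower. Short of the threshold were the other SPARC probe set (0.28), the other MGAT5 probe set (-0.06) and the 2 other ST6GAL1 probe sets (-0.32 to -0.17). ATP2A3 probe sets at 0.05 and 0.33 did not pass, while another at 0.66 did. SPARC lost its call without K2, S1, S2, S3 or US1 (adjusted p 0.0507 to 0.101), SPP1 without K1, K2, S1, S2, S3, US1 or US2 (adjusted p 0.0515 to 0.107) and MMP7 without K1, K2, S1, S2, S3, US2 or US3 (adjusted p 0.0557 to 0.145). PLAU lost its call without K1, K2, S2 or S3 (adjusted p 0.0529 to 0.0924), SERPINE2 without K1, K2, S1, S2 or S3 (adjusted p 0.0758 to 0.124) and ATP2A3 without K1 or S3 (adjusted p 0.0537 to 0.0765). CLCN3 lost its call without K1, K2 or S3 (adjusted p 0.0514 to 0.067), P2RX4 without K1, K2, S2, S3, UK1, UK2, US1, US2 or US3 (adjusted p 0.0542 to 0.168) and P2RX5 without K1, K2, S1, S2, S3, UK2, US1, US2 or US3 (adjusted p 0.0582 to 0.159).

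Genes best known from other tissues passed in small numbers. Of 30 muscle genes 3 rose, TNNT1 (0.69 ± 0.10), ACTN2 (0.58 ± 0.13) and CSRP3, a protein of the muscle Z disc. CSRP3 read 6.09, 6.43 and 5.93 on the scrambled arrays and 8.02, 8.49 and 7.58 on the CHD4 shRNA arrays, separate between groups, at 1.88 ± 0.30 (adjusted p = 0.00315). Of 35 testis and germ cell genes, 2 rose and 3 fell. TSKS, a substrate of testis kinases, read 5.59, 6.52 and 5.94 on the scrambled arrays and 7.71, 7.55 and 8.0 on the CHD4 shRNA arrays. Array 3 was the highest here, and the rise was 1.74 ± 0.19 (adjusted p = 0.000266). SPA17, a sperm protein, changed by -0.78 ± 0.16 and SSX1 rose by 0.54 ± 0.13. Of 22 fibroblast and endothelial genes, the endothelial receptor kinase TIE1 rose by 1.39 ± 0.16 (adjusted p = 0.000445), the collagen chain COL6A3 by 1.29 ± 0.21 (adjusted p = 0.00352), and FBN1 changed by -0.71 ± 0.19 (adjusted p = 0.0361), while COL1A1 stood at -0.03 and CDH5 at 0.04. None of 20 epithelial genes passed in limma, MUC1 having the lowest p, at 0.21 ± 0.10 (adjusted p = 0.234). Of 32 neuronal and neuroendocrine genes, CHGB, S100B and ENO2 rose and GAD1 changed by -0.49 ± 0.13 (adjusted p = 0.0295). NFE2, an erythroid and megakaryocyte factor, rose by 0.71 ± 0.15 (adjusted p = 0.0118) with ITGA2B among 23 such markers. Of 14 mast cell, eosinophil and basophil markers, FCER1A, KIT and RNASE2 rose. The proteasome subunit PSMD12 had the lowest p among 34 proteasome and ribosome genes, at 0.36 ± 0.11 (adjusted p = 0.0533) and 0.0333 with the block. The testis and germ cell genes list had, with 1 array left out, 1 (without K1, K2 or S2) to 2 higher and 2 (without K1, K2, S1, S2, S3, US1 or US2) to 5 (without K3) lower. The neuronal and neuroendocrine genes list had, with 1 array left out, 3 to 5 (without K3) higher. The erythroid and megakaryocyte markers list had, with 1 array left out, 1 (without K1 or S3) to 2 higher. The mast cell, eosinophil and basophil markers list had 5 higher and 0 lower members with the block, and, with 1 array left out, 2 (without S1, S3, UK1, UK2, US1, US2 or US3) to 5 (without K3) higher. The proteasome and cytosolic ribosome list had 6 higher and 1 lower members with the block, and, with 1 array left out, 0 to 6 (without K3) higher. Short of the threshold were the 3 other ACTN2 probe sets (-0.07 to 0.39), the other TSKS probe set (0.42), the other SSX1 probe set (-0.03) and the other FBN1 probe set (-0.25). A GAD1 probe set at -0.42 did not pass, while another at -0.79 did. ACTN2 lost its call without K1 or S3 (adjusted p 0.0554 to 0.0749), SSX1 without K1, K2, S2 or S3 (adjusted p 0.0533 to 0.0969) and FBN1 without K1, K2, S1, S2, S3, UK2, US1 or US2 (adjusted p 0.0529 to 0.131). GAD1 lost its call without K1, K2, S1 or S3 (adjusted p 0.0586 to 0.114) and NFE2 without K1 or S3 (adjusted p 0.0538 to 0.0642).

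Changed genes that lie next to each other in the RefSeq gene order were counted over 7238 adjacent pairs in which both genes were measured. Both rose in 32 pairs, both fell in 17, and in 32 the directions were opposite. Over all genes 4.73% rose and 4.69% fell. The counts expected from these shares were not worked out, so the pairs are no evidence of clustering. The longest runs held 3 genes, and 4 were found, all of rises. They were AKR1C1, AKR1C2 and AKR1C3 on chromosome 10, ZDHHC13, CSRP3 and E2F8 on chromosome 11, HIPK2, TBXAS1 and PARP12 on chromosome 7, and ASF1B, ADGRL1 and ADGRE5 on chromosome 19. In the run on chromosome 11, the palmitoyltransferase ZDHHC13 rose by 0.65 ± 0.13 (adjusted p = 0.0102) and the cell cycle repressor E2F8 by 0.50 ± 0.13 (adjusted p = 0.0364). On chromosome 7 the kinase HIPK2 rose by 0.65 ± 0.10 (adjusted p = 0.0029). On chromosome 19 the histone chaperone ASF1B rose by 0.40 ± 0.10 (adjusted p = 0.0217) and the adhesion receptors ADGRL1 and ADGRE5 by 0.52 ± 0.15 (adjusted p = 0.0418) and 0.64 ± 0.14 (adjusted p = 0.014). Runs of 2 included IFI44L and IFI44 as well as FGR and IFI6 on chromosome 1, OAS1 and OAS3 on chromosome 12, GPR18 and GPR183 on chromosome 13, and H2BC5 and H2BC6 on chromosome 6. Neighbours of 1 family may share probes. The 2 other ADGRL1 probe sets did not pass (0.07 to 0.21). ZDHHC13 lost its call without K1 (adjusted p 0.0578), E2F8 without K1, K3, S1, S2, S3, UK2 or US1 (adjusted p 0.0516 to 0.106) and ASF1B without K1, K2, S1 or S3 (adjusted p 0.0567 to 0.104). ADGRL1 lost its call without K1, K2, S1, S2, S3, UK1 or US1 (adjusted p 0.0572 to 0.13) and ADGRE5 without S3 (adjusted p 0.0608).

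Promoter composition of the strongest changes is given as a description, with no test. Among the 9562 genes with a promoter entry, the median GC content of the 250 bases before the start was 63.6%, and the median number of CpG dinucleotides was 19. For the 107 genes that rose at least 2-fold, the medians were 55.6% and 5. For the 46 that fell at least 2-fold they were 63.0% and 20. The letters TATAAA, searched on both strands, occurred in 16.8% of the promoters of the 107 genes and 7.93% of all. The interferon element described above occurred in 13.1% of the 107 and 2.56% of all. The 107 include IFI6, IFI27, IFI44, IFITM1 and OAS3, whose matches are printed above, so this share partly repeats that description.

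Where MV4-11 differed from U937 could be tested directly. Of 11963 genes, 0 had a difference between the 2 lines' changes past the threshold in limma (0%), and 546 did at an unadjusted p under 0.05. The lowest adjusted p was 0.539, for FILIP1L, and with the block it was again 0 genes, with 1335 at an unadjusted p under 0.05. Neither unadjusted count allows for the 11963 tests made. Of the 1127 genes changed in MV4-11, 1102 had the same sign in U937, where 761 genes passed in all. How often the signs matched over all genes was not counted, so the 1102 have no background here. CD52 changed by 4.38 ± 0.32 in U937, CAB39L by -2.02 ± 0.42, ASNS by -1.0 ± 0.23 and CXCR4 by -0.94 ± 0.11, and the MV4-11 changes of these genes were given above. Of the 44 interferon-stimulated genes, 4 rose in U937 (against 2.67% of all genes) and 1 fell (against 3.69%), at a median of 0.14, and the 4 are among the 14 that rose in MV4-11. They are IFITM1 (1.5 ± 0.25, adjusted p = 0.00466), IFI6 (0.93 ± 0.25, adjusted p = 0.046), IFI16 (0.61 ± 0.16, adjusted p = 0.0362) and IRF7. IFI27 stood at 0.01 ± 0.66 in U937, IFI44 at -0.05 ± 0.35 and MX1 at -0.20 ± 0.53, with adjusted p for the difference of 0.937, 0.539 and 0.937. Each gene has 1 spread over all 12 arrays, so these errors include the spread of the MV4-11 arrays and do not describe U937 alone. Without MV4-11 CHD4 shRNA array 2, which had the highest values of IFI27, IFI44 and MX1, these 3 and TM6SF1 passed, at adjusted p of 9.27e-05, 2.79e-05, 0.00468 and 0.0273. The differences of IFI27, IFI44 and MX1 were then 2.04 ± 0.16, 2.04 ± 0.13 and 1.11 ± 0.13. Without MV4-11 CHD4 shRNA array 3, CHGB passed, at 0.0164. HLA-DPA1 rose in MV4-11 and stood at -0.72 ± 0.30 in U937, where the adjusted p of the difference was 0.539.

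**Figure D5:**
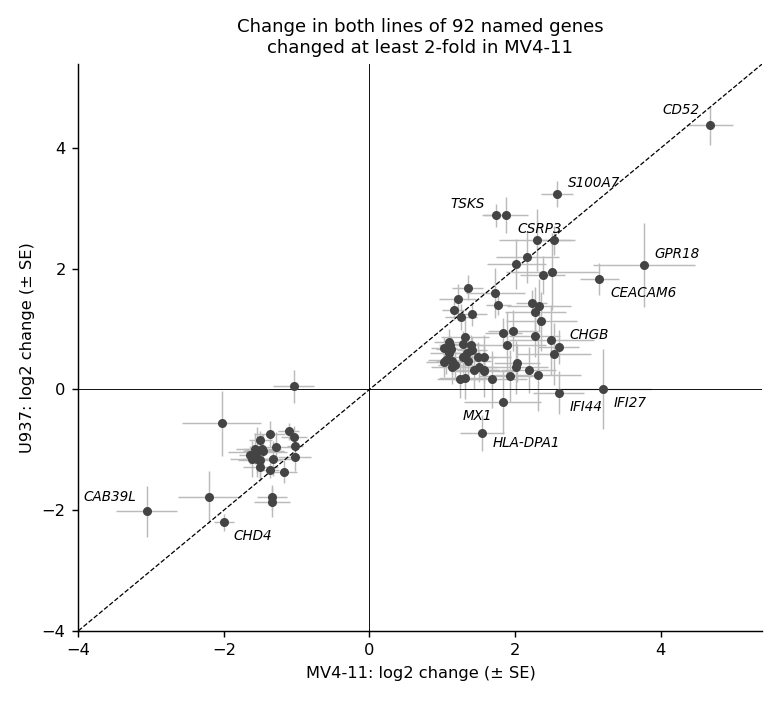
Log2 change with CHD4 shRNA in MV4-11 (x axis) and in U937 (y axis), each with its SE, for 92 named genes that changed at least 2-fold in MV4-11, with the dashed line at equal change. CD52 and CHD4 lie near the line, and IFI27, IFI44 and MX1 lie near 0 on the y axis.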

How the data were processed

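Total RNA was hybridised as biotinylated cRNA to 12 arrays of 1 colour, 3 for each of 2 cell lines and 2 shRNAs, per the labels' protocols. The labels do not say whether arrays of the same number share a culture. The authors deposited log2 values from RMA (per the submitters' processing notes). The version of RMA is not given in the sources used here, nor is whether it was run on all 12 arrays at once. RMA sets the arrays to 1 common distribution, so a shift of all genes together would not show; array medians lay between 6.97 and 7.02. Probe intensities were not used here, so signal over background is unknown, and the number of arrays limits the precision.

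Of 22277 probe sets, 62 were controls, 1043 had several symbols and 2108 had none listed; 19064 had 1 symbol, and 19052 of these matched RefSeq by Entrez number. Each of 11963 genes was represented by its brightest probe set, averaged over all 12 arrays. limma 3.58.1 in R 4.3.3 fitted the 4 groups together (8 residual and 4.66 prior degrees of freedom), with Benjamini-Hochberg adjustment over all genes and a threshold of 0.05; it was tested on simulated data. Same-numbered MV4-11 arrays deviated together from their group means (r = 0.46, 0.48 and 0.49, against -0.36 to -0.05 for other pairs, across genes), so the replicate number was taken as pairing and also fitted as a block within each line.

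Named genes are the 20 largest rises and the 20 largest falls past the threshold with separate groups, plus, in each list, up to 6 members past the threshold with the lowest p (or the lowest where none passed), the genes steadiest over pairs or most variable over CHD4 shRNA arrays (5 each), the largest differences between lines (8 each way), and runs of neighbours (up to 10); others are named as chosen after their values were seen, or to complete a list. Of the 53 lists, 1 is not reported here, and some members of other lists are not either. The members and lists were chosen with earlier results of these data known. Promoters and gene order come from RefSeq (GRCh38.p14), where 9562 genes had a promoter entry. Alternatives were each array left out, MV4-11 arrays alone, other scalings, other rules for probe sets, a filter on dim genes and a stricter threshold.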

Additional observations from a re-analysis of the deposited data

Results flagged for a closer look

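Probe sets without a single gene name took no part in the comparisons but held signal. Of the 1043 with several symbols, 63 were past the threshold in limma (6.04%), 27 higher and 36 lower with CHD4 shRNA. Of the 2108 with no symbol listed, 79 were (3.75%), 51 higher and 28 lower. Over probe sets with 1 symbol the share was 8.25%. The largest rise with several symbols was 3.51 ± 0.34 (limma adjusted p = 0.000148). The largest fall with no symbol listed was -2.52 ± 0.3 (limma adjusted p = 0.00055). The largest rises and falls named above therefore rank only genes with a probe set of 1 symbol.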

How the results depend on the processing

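The count of changed genes, 1127 (566 higher, 561 lower), was 2351 with the replicate block within each line (1245 higher, 1106 lower). With only the 6 MV4-11 arrays it was 513 (268 and 245), and with those arrays and the block 1900 (977 and 923). At an adjusted p under 0.01 it was 376. Leaving out 1 array gave 422 to 1964 genes, 222 to 1015 higher and 200 to 949 lower, and 133 to 322 genes changed at least 2-fold, against 191. The number of genes whose change differed between the lines was 0 to 4 with 1 array left out. Other settings stayed within 1.5 times: all 4 of median centring (1152), quantile normalization (1169), fitting with a trend (1140) and averaging each gene over its probe sets (1150). Of 229 named genes past the threshold, 102 kept the call under all alternatives and none reversed. Short of the threshold fell 110 results without MV4-11 CHD4 shRNA array 1 and 94 without MV4-11 scrambled array 3. With only the 6 MV4-11 arrays fitted, 95 did. The cause was not tested. The block ended the call of GPR183 and of no other named gene.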
